A study of Mus musculus with 57 samples.

Results

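The genes described here are the 10 MHC class II antigen presentation genes H2-Aa, H2-Ab1, H2-Eb1, H2-DMa, H2-DMb1, H2-DMb2, H2-Oa, H2-Ob, Cd74 and Ciita. They were chosen by name, as known members of the pathway, out of 24941 genes in the deposited table of read counts, and each gene was read from its transcript with the highest total count. All 10 were found, and they were followed through 57 polyadenylated RNA sequencing libraries in 16 groups, made from sorted macrophages and whole tissue of mouse liver and from sorted blood monocytes, in a diet model of non-alcoholic steatohepatitis (NASH).

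MHC class II molecules display peptides of ingested proteins to CD4+ T cells. H2-Aa and H2-Ab1 encode the alpha and beta chains of I-A, and H2-Eb1 encodes the beta chain of I-E, whose alpha chain C57BL/6 mice do not make. Cd74 encodes the invariant chain, which escorts new class II molecules to endosomes. There H2-DM, a pair of chains from H2-DMa and from H2-DMb1 or H2-DMb2, exchanges the invariant chain remnant for antigen peptides, and H2-O, made by H2-Oa and H2-Ob, restrains H2-DM and is best known from B cells. Ciita encodes the transactivator that acts as the master switch of these genes. It works through a factor complex bound to the X and Y boxes of their promoters. In healthy liver, Kupffer cells are the resident macrophages that take up blood-borne particles and present some of that material.

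The libraries formed 4 sets, each fitted on its own. The first held C57BL/6J mice, 2 libraries per group. It comprised F4/80-high, Tim4-negative Kupffer-niche recruited macrophages (KN-RMs), CD11b-high Ly6C-low recruited macrophages (Ly6C-low RMs), CD11b-high Ly6C-high recruited macrophages (Ly6C-high RMs) and F4/80-high Tim4-positive Kupffer cells, all from mice on NASH diet. Ly6C-high blood monocytes of mice on NASH diet and Tim4-positive Kupffer cells of healthy mice completed it, and weeks on diet are not given for this set in the sources used here. The second set was a time course of Tim4-positive Kupffer cells of C57BL/6J mice after 0 weeks (control diet, 3 libraries), 1 week (2), 4 weeks (2), 10 weeks (3), 20 weeks (3) and 30 weeks (4) of NASH diet. The third held KN-RMs after 20 weeks of NASH diet from mice whose alleles for the nuclear receptors LXR alpha and LXR beta are floxed, labelled Clec4f-cre positive (3 libraries) or Cre negative (3 libraries). Clec4f is a lectin gene of Kupffer cells and of the recruited cells that fill their niche, so its promoter limits Cre to such cells. The fourth was whole liver after 4 weeks of CDAHFD, a choline-deficient, amino acid-defined high-fat diet, from mice labelled Clec4f-cre DTR positive (12 libraries) or DTR negative (10 libraries), where DTR is the diphtheria toxin receptor. Whether toxin was given is not stated in the labels. Liver cells were isolated in the presence of flavopiridol, a blocker of transcription. The labels give replicate numbers but not whether replicates are separate mice, so a p-value here is set against the spread between libraries, part of which may be technical.

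Depth, as the total count of a library, was 12368140 to 22707571 reads for the sorted populations and 10483452 to 26969509 reads for the time course. It was lower for the LXR-floxed cells, at 2319383 to 5086239 reads, and for whole liver, at 5389957 to 9941477 reads. In the sorted populations and the time course, Kupffer cell markers followed the gates. Their levels are in CPM, counts with every library scaled to the same total, with no length scaling. In KN-RMs of the sorted populations, 6 of these markers summed to 12008 to 14233 CPM. All Tim4-positive Kupffer cell libraries had 14581 to 33947 CPM of them. Ly6C-low RMs had 230 to 424 CPM and Ly6C-high RMs 200 to 297 CPM. The LXR-floxed KN-RMs, scaled within their own set, had lower sums than the other KN-RMs. They had 1190 to 8087 CPM under the Cre-positive and 2438 to 3364 CPM under the Cre-negative label. The cause of this gap in the same 6 markers was not tested. Blood monocytes had 0.57 and 0.616 CPM of these markers, with Timd4 and Marco at 0. Levels below are in RPKM, read counts scaled to exon length and to TMM library size within each set, so they can be compared between genes. Changes are log2 ratios with their standard errors (SE) from edgeR's quasi-likelihood test, and a gene is called where its Benjamini-Hochberg adjusted p over all genes tested is below 0.05. In bulk RNA, fewer cells of a type and less RNA per cell cannot be told apart, and this touches every difference below.

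Of the 10 genes, 8 lie within 224 kb of chromosome 17, between positions 34092379 and 34316674 of mm10, in the order H2-Oa, H2-DMa, H2-DMb2, H2-DMb1, H2-Ob, H2-Ab1, H2-Aa and H2-Eb1. Cd74 and Ciita lie elsewhere. RefSeq promoter windows of 300 bases (250 before and 50 after the start, GRCm38.p6) were at hand for 7 of the 10 genes, and not for H2-Ab1, Cd74 and Ciita. In 6 of these 7 the window holds the Y box TGATTGG on the gene's own strand. The stretches below run from 50 bases before the Y box and are shown because their X-Y module is where the complex that recruits the Ciita product binds. Capitals mark the Y box and, where present 25 to 35 bases before it, the X box core GNAAC.
H2-Aa: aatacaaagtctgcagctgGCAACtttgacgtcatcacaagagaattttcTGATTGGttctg
H2-Eb1: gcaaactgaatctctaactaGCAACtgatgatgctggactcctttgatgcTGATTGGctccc
H2-DMb1: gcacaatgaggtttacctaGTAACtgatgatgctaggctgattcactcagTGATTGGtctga
H2-DMb2: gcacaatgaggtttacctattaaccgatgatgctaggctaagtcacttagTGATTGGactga
H2-Oa: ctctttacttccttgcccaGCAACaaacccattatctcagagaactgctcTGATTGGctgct
H2-Ob: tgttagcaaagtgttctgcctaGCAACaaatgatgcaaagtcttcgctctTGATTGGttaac

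All lie on chromosome 17 of GRCm38.p6: H2-Aa at chr17:34287862-34287923 on the minus strand, and on the plus strand H2-Eb1 at chr17:34305756-34305817, H2-DMb1 at chr17:34153078-34153139, H2-DMb2 at chr17:34145107-34145168, H2-Oa at chr17:34092284-34092345 and H2-Ob at chr17:34238796-34238857. The X core begins 28 bases (H2-Ob), 30 bases (H2-Eb1) or 31 bases (H2-Aa, H2-DMb1 and H2-Oa) before the Y box. On either strand, the Y box alone occurs in 7.82% of 32851 RefSeq promoter windows of the same length and the X core alone in 84.8%, while the X core followed by the Y box at this spacing, which does not let them overlap, occurs in 0.323%. The spacing was set after the member sequences were seen, and a match is a description of letters, not of binding. The stretches of the paralogs H2-DMb1 and H2-DMb2 share 56 of 62 bases. Counted from 1 at the left end and with the H2-DMb1 base first, the difference G20T replaces the G of the X core in H2-DMb2. Neither of the 2 H2-DMa windows holds the Y box. H2-DMb1 and H2-DMb2 also resemble each other in their transcripts, so the split of reads between them is uncertain.

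In healthy Kupffer cells the genes spanned a wide range of levels. Cd74 was at 3238 and 4288 RPKM and H2-Aa at 851 and 1060 RPKM, whereas H2-DMa stood at 72.1 and 89.8, H2-DMb1 at 57.3 and 65.6, and Ciita at 8.04 and 10.8 RPKM. The H2-O genes and H2-DMb2 were lowest: H2-Ob had 1.52 and 2.47 RPKM, H2-Oa 0.363 and 2 RPKM, and H2-DMb2 4.21 and 4.12 RPKM. Together the 10 genes took a median of 4.38% of all counts in Ly6C-low RMs, 2.93% in KN-RMs, 2.03% in NASH Kupffer cells, 0.751% in healthy Kupffer cells, 1.32% in Ly6C-high RMs and 0.119% in blood monocytes.

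Across the 6 populations, H2-Aa, H2-Eb1 and Cd74 shared an order of mean levels: Ly6C-low RMs, KN-RMs, NASH Kupffer cells, Ly6C-high RMs, healthy Kupffer cells and blood monocytes. Not every step was tested or called. EdgeR called none of these 3 genes between KN-RMs and NASH Kupffer cells, and only H2-Aa between Ly6C-low RMs and KN-RMs. Ly6C-high RMs were not tested against either Kupffer cell group, nor healthy Kupffer cells against blood monocytes. H2-Ab1 followed the order too, but Ly6C-low RMs, KN-RMs and NASH Kupffer cells overlapped. Ciita differed in that Ly6C-high RMs, with 52.9 and 48.9 RPKM, stood above NASH Kupffer cells, with 33 and 44.9 RPKM, and that blood monocytes and healthy Kupffer cells, the lowest, overlapped. H2-DMa and H2-DMb1 were highest in KN-RMs, where both overlapped with Ly6C-low RMs. H2-DMb2, H2-Oa and H2-Ob had Ly6C-high RMs in the second place behind Ly6C-low RMs, overlapping with KN-RMs for H2-DMb2.

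**Figure D1:**
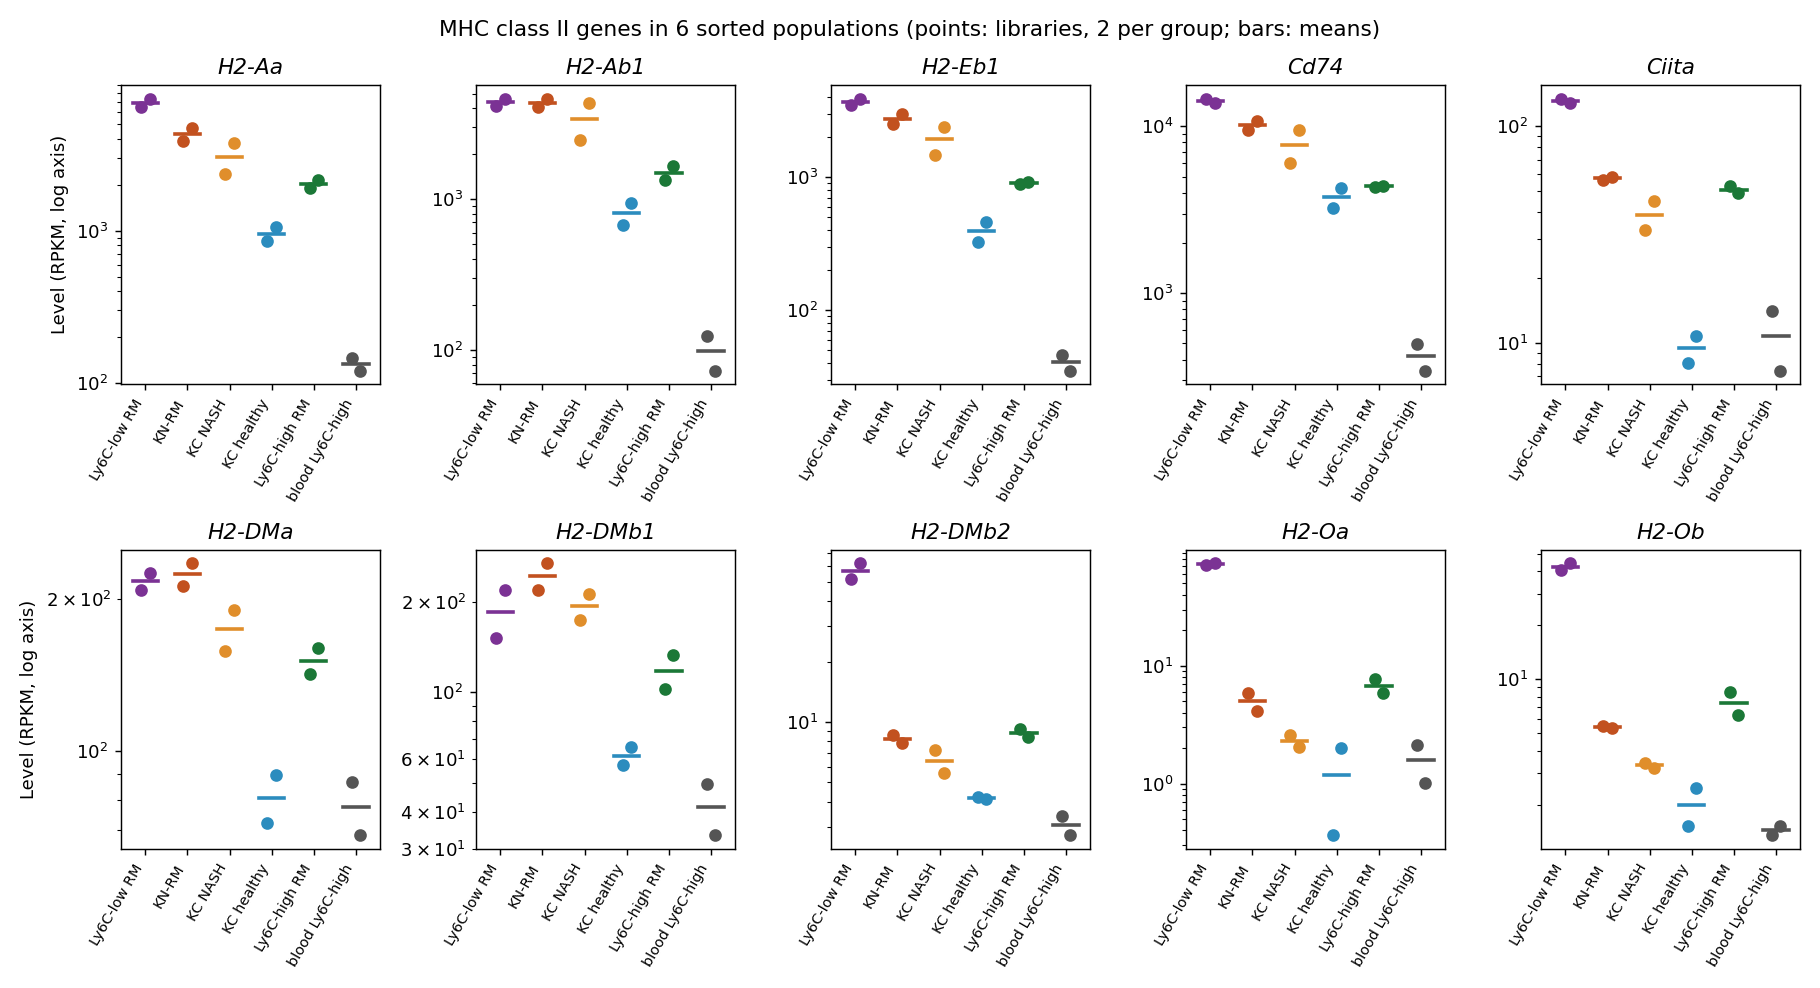
Level of each gene (RPKM, logarithmic axis) in the 6 sorted populations, with 2 libraries per group as points and bars at their means (RM, recruited macrophage; KN-RM, Kupffer-niche recruited macrophage; KC, Kupffer cell). H2-DMb2, H2-Oa and H2-Ob stand out by the gap between Ly6C-low RMs, at 40.3 to 74.2 RPKM, and all other groups, at 9.25 RPKM or less.

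Kupffer cells of the NASH diet carried more class II RNA than healthy ones. Of the 10 genes, 8 rose and 0 fell, while 20.7% of all 14407 genes tested were called in this comparison, 11.2% higher and 9.56% lower. The median log2 change was 1.38 over the 10 genes and 0.00 in size over all genes. H2-Eb1 changed most. It had 1459 and 2379 RPKM in NASH Kupffer cells, against 325 and 459 RPKM in healthy Kupffer cells. This was a log2 change of 2.29 ± 0.25 (SE, edgeR adjusted p = 0.000127). H2-Ab1 had 2469 and 4331 RPKM in NASH Kupffer cells, against 673 and 936 RPKM in healthy ones (log2 2.08 ± 0.30; edgeR adjusted p = 0.000939).

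Ciita, the transactivator, stood at 33 and 44.9 RPKM in NASH Kupffer cells, against 8.04 and 10.8 RPKM in healthy Kupffer cells (log2 2.05 ± 0.26; edgeR adjusted p = 0.000433). The other called genes had smaller log2 changes. H2-Aa changed by 1.68 ± 0.22 on the log2 scale, H2-DMb1 by 1.66 ± 0.23, H2-DMa by 1.10 ± 0.16 and Cd74 by 1.04 ± 0.23 (edgeR adjusted p from 0.000553 to 0.0114). H2-Ob, a chain of the H2-DM inhibitor, had 3.43 and 3.2 RPKM in NASH Kupffer cells, against 1.52 and 2.47 RPKM in healthy ones (log2 0.74 ± 0.23; edgeR adjusted p = 0.0399). Its call ended when any of 3 of the 4 libraries was left out, and that of Cd74 ended without NASH replicate 2 or healthy replicate 1; limma on log2(TPM + 1) called neither, with log2 changes of 0.42 for H2-Ob and 0.81 for Cd74. H2-DMb2 (7.22 and 5.57 RPKM in NASH, 4.21 and 4.12 RPKM in healthy Kupffer cells) and H2-Oa (2.58 and 2.05 RPKM in NASH, 0.363 and 2 RPKM in healthy Kupffer cells) were not called.

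In the wider pathway, of 7 class II transcription factors, 0 rose and 1 fell: Rfx5, the DNA-binding subunit of the X box factor, had 23.1 ± 0.342 CPM in NASH and 35.6 ± 4.93 CPM in healthy Kupffer cells (SD, n = 2 each; log2 -0.62, edgeR adjusted p = 0.0129). Of 6 antigen processing genes, 1 rose, the lysosomal protease gene Ctsd (log2 1.31 ± 0.14). Of 6 costimulation and T cell inhibitory ligands, 0 rose and 2 fell, most of all Icosl (log2 -1.12 ± 0.32), and of 9 interferon-gamma signalling genes 2 rose, Irf8 among them, and 1 fell, the receptor chain Ifngr1 (log2 -0.76 ± 0.13). None of the 3 turnover genes March1, March8 and Cd83 was called by edgeR. Summed B cell markers were 187 and 233 CPM in NASH and 146 and 150 CPM in healthy Kupffer cells, with 1 of 10 called higher; 8 of 10 T and NK cell markers were higher and 1 was lower, at a sum of 37.3 and 57.9 CPM against 22.5 and 27.3 CPM; and dendritic cell markers summed to 99.5 and 102 CPM in NASH and 125 and 129 CPM in healthy Kupffer cells. Sinusoidal endothelial markers were lower in 7 of 10 cases, at 758 CPM in both NASH libraries, against 1031 and 1075 CPM in healthy ones. The Kupffer cell markers Timd4 and Marco and 3 of 10 hepatocyte markers were also lower, and the Ly6C-high monocyte markers Ccr2 and F13a1 were higher. No marker of these lists was at 0 in either group, and their part in the class II result was not tested.

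**Figure D2:**
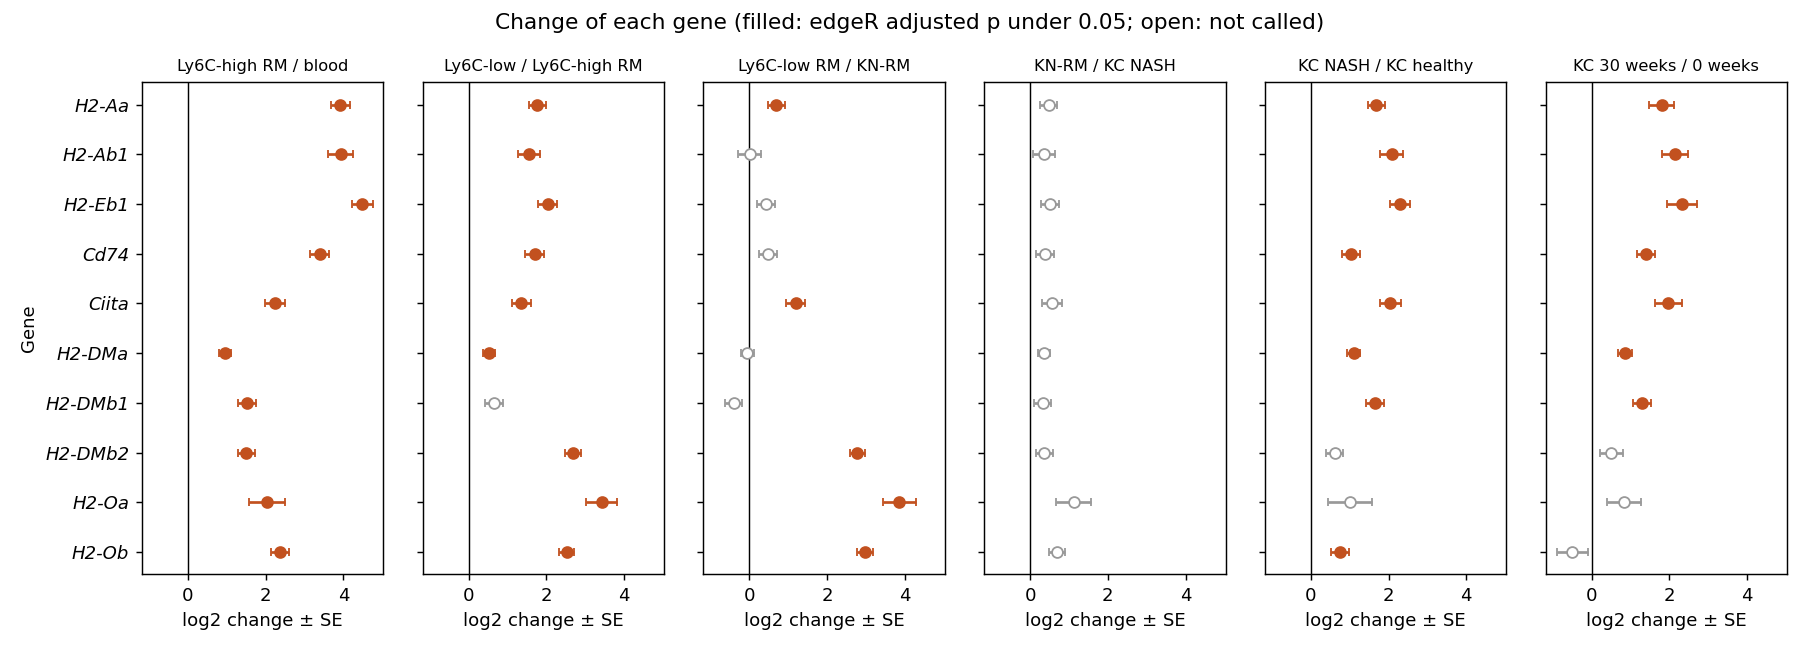
Log2 change (horizontal axis) with its standard error for each gene in 5 comparisons of sorted populations and between 30 and 0 weeks on diet, with the group named before the slash over the one after it. Filled points have an edgeR adjusted p below 0.05. The I-A and I-E chains changed most in Ly6C-high RMs against blood, and H2-DMb2, H2-Oa and H2-Ob most in both Ly6C-low RM comparisons.

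Between KN-RMs and NASH Kupffer cells, which share the F4/80-high gate and are split by Tim4, edgeR called 0 of the 10 genes, as did DESeq2 and limma, in a comparison that called 0.534% of all genes (0.333% higher, 0.201% lower); 5 of the 10 had an unadjusted p below 0.05, as did 9.1% of all genes. H2-Aa had 3863 and 4680 RPKM in KN-RMs, against 2344 and 3760 RPKM in NASH Kupffer cells, a fitted log2 difference of 0.48 ± 0.22. Cd74 had 9547 and 10697 RPKM in KN-RMs, against 6045 and 9467 RPKM in NASH Kupffer cells (0.38 ± 0.23). The 2 groups overlapped in H2-Ab1. How many of all genes lack overlap with 2 libraries per group was not counted, so nothing is read from the other members in this respect. The 10 fitted differences rest on the same libraries and are not independent of each other. They ran from 0.33 to 1.12, against a median of 0.01 over all genes. H2-Oa had the largest, with 5.82 and 4.17 RPKM in KN-RMs, against 2.58 and 2.05 RPKM in NASH Kupffer cells (1.12 ± 0.46; edgeR adjusted p = 0.486). In the pathway lists, 2 of 6 antigen processing genes fell, Ctsd (log2 -0.79 ± 0.14) and Ctsl, and 0 genes of the other lists were called by edgeR.

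In Ly6C-low RMs against KN-RMs, both H2-O genes, H2-DMb2, Ciita and H2-Aa rose. These 5 of 10 genes compare with 0 that fell, where 33.3% of all genes were called, 15.3% higher and 18.1% lower; the median change was 0.59 over the 10 genes and -0.01 over all genes. H2-Oa had 72 and 74.2 RPKM in Ly6C-low RMs, against 5.82 and 4.17 RPKM in KN-RMs (log2 3.86 ± 0.42; edgeR adjusted p = 5.17e-05). H2-Ob, its partner chain, had 40.3 and 44.2 RPKM in Ly6C-low RMs, against 5.47 and 5.33 RPKM in KN-RMs (log2 2.97 ± 0.21; edgeR adjusted p = 2.55e-06). H2-DMb2 had 51.6 and 61.9 RPKM in Ly6C-low RMs, against 8.57 and 7.9 RPKM in KN-RMs (log2 2.78 ± 0.20; edgeR adjusted p = 2.9e-06). The fold changes of these 3 genes were 6.88 to 14.5.

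Ciita had 134 and 128 RPKM in Ly6C-low RMs, against 56.5 and 58.3 RPKM in KN-RMs (log2 1.19 ± 0.25; edgeR adjusted p = 0.00403). H2-Aa had 6464 and 7336 RPKM in Ly6C-low RMs, against 3863 and 4680 RPKM in KN-RMs (log2 0.69 ± 0.22; edgeR adjusted p = 0.0295), but its call ended whichever of the 4 libraries was left out. The other 5 genes were not called by edgeR, with fitted log2 differences of 0.01 ± 0.29 for H2-Ab1, -0.05 ± 0.16 for H2-DMa, -0.40 ± 0.22 for H2-DMb1, 0.43 ± 0.23 for H2-Eb1 and 0.49 ± 0.23 for Cd74; DESeq2 also called Cd74, and limma Cd74 and H2-Eb1. The ratio of H2-DMb2 to H2-DMb1 was 0.281 and 0.341 in the Ly6C-low RM libraries, against 0.0293 and 0.039 in KN-RMs. H2-DMa exceeded H2-Oa by 2.88-fold and 3.03-fold in Ly6C-low RMs, against 36.4-fold and 56.3-fold in KN-RMs.

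In the pathway lists, of 6 antigen processing genes 0 rose and 5 fell, most of all Ctsl (log2 -1.82 ± 0.12), a protease that trims the invariant chain in thymic epithelium. Of 7 class II transcription factors 2 rose, including Rfx5 at 46.1 ± 3.39 CPM in Ly6C-low RMs and 28.8 ± 2.94 CPM in KN-RMs (SD, n = 2 each), and 1 fell, Rfxap (log2 -0.86 ± 0.20). Of 6 costimulation and T cell inhibitory ligands 2 rose and 1 fell, the largest being Pdcd1lg2, which encodes PD-L2 (log2 2.77 ± 0.38). Of 3 turnover genes 1 fell, the ubiquitin ligase gene March8 (log2 -1.19 ± 0.13), and of 9 interferon-gamma signalling genes 2 rose and 1 fell, led by Jak2 (log2 1.68 ± 0.12).

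Markers of other cells stood beside this result. In Ly6C-low RMs 10 dendritic cell markers summed to 538 and 566 CPM, against 111 and 113 CPM in KN-RMs; 7 of 10 were higher, led by Cd209a at 126 ± 18.6 CPM in Ly6C-low RMs and 0.618 ± 0.64 CPM in KN-RMs (SD, n = 2 each), and 2 were lower, Clec9a and Batf3. B cell markers summed to 236 and 171 CPM in Ly6C-low RMs and 197 and 193 CPM in KN-RMs, with 3 of 10 higher, of which Pax5 changed most (7.21 ± 3.37 CPM in Ly6C-low RMs, 2.1 ± 1.08 CPM in KN-RMs; SD, n = 2 each). Sinusoidal endothelial markers were higher in 8 of 10 cases and lower in 1, Stab2, with sums of 602 and 610 CPM in Ly6C-low RMs and 471 and 504 CPM in KN-RMs. Macrophage markers, of which 4 of 6 were lower, summed to 8302 and 8423 CPM in Ly6C-low RMs and 13363 and 14143 CPM in KN-RMs. No marker of these lists was at 0 in either group, and their part in the H2-O, H2-DMb2 and Ciita differences was not tested.

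All 10 genes rose in Ly6C-high RMs against blood Ly6C-high monocytes, in a comparison that called 48.6% of all genes, 27.3% higher and 21.3% lower; the median change was 2.30 over the 10 genes and -0.01 over all genes. H2-Eb1 had 890 and 919 RPKM in Ly6C-high RMs, against 45.7 and 35 RPKM in blood monocytes (log2 4.48 ± 0.27; edgeR adjusted p = 5.52e-07). H2-Aa had 1912 and 2132 RPKM in Ly6C-high RMs, against 147 and 121 RPKM in blood (log2 3.92 ± 0.24; edgeR adjusted p = 6.59e-07). H2-Ab1 (log2 3.93 ± 0.32) and Cd74 (3.39 ± 0.25) moved by similar amounts.

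The other genes had smaller changes. H2-DMa had 142 and 160 RPKM in Ly6C-high RMs, against 86.9 and 68.2 RPKM in blood monocytes (log2 0.96 ± 0.16; edgeR adjusted p = 0.000535), while H2-DMb2 had 9.25 and 8.38 RPKM, against 3.41 and 2.72 RPKM. H2-DMb1 changed by 1.51 ± 0.23, H2-Oa by 2.03 ± 0.46, Ciita by 2.24 ± 0.26 and H2-Ob by 2.37 ± 0.22. The ratio of H2-Aa to H2-DMa was lowest in blood monocytes, at 1.69-fold and 1.77-fold, against 13.3-fold and 13.4-fold in Ly6C-high RMs. Within the population set, healthy Kupffer cells were next lowest, with 11.8-fold in both libraries. Time-course Kupffer cells went below this: the lowest library had 4.76-fold at week 4, 7.32-fold at week 10 and 8.29-fold at week 0.

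Of 6 antigen processing genes 5 rose in Ly6C-high RMs against blood, led by the asparagine endopeptidase gene Lgmn (log2 2.37 ± 0.16), and 0 fell. Of 6 costimulation and T cell inhibitory ligands 3 rose, led by Cd274 (PD-L1; log2 1.23 ± 0.19), and 0 fell. Of 3 turnover genes 2 rose, led by Cd83, which protects surface class II from ubiquitination (log2 4.52 ± 0.31), and March1 fell. By contrast 0 of 7 class II transcription factors rose and 2 fell, led by Rfxap (log2 -0.92 ± 0.20), and 0 of 9 interferon-gamma signalling genes rose and 3 fell. All 10 B cell markers were higher in Ly6C-high RMs, at a sum of 145 and 79.1 CPM, against 31.6 and 35.2 CPM in blood; 7 of 10 dendritic cell markers were higher, at 190 and 177 CPM against 111 and 142 CPM; and all 10 hepatocyte markers were higher, at 1549 and 4219 CPM against 0 and 0.0474 CPM, with 9 of them at 0 in blood. All 10 T and NK cell markers were higher, at 72.1 and 90.6 CPM against 8.01 and 8.06 CPM, as were all 10 sinusoidal endothelial markers, at a median of 1023 CPM against 2.12 CPM, with 5 of them at 0 in blood, and 5 of 6 Kupffer cell markers. All 6 Ly6C-high monocyte markers were lower, at 3755 and 4215 CPM against 9746 and 13125 CPM. Their part in the class II differences was not tested, and liver digestion and cell source cannot be told apart here.

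Within the CD11b-high gate, Ly6C-low RMs exceeded Ly6C-high RMs in 9 of 10 genes, and 0 were lower, where 25.7% of all genes were called, 11.6% higher and 14% lower. The median change was 1.74 over the 10 genes and -0.03 over all genes. H2-Oa (72 and 74.2 RPKM in Ly6C-low RMs, 7.71 and 5.87 RPKM in Ly6C-high RMs; log2 3.43 ± 0.40), H2-DMb2 (2.69 ± 0.20) and H2-Ob (2.52 ± 0.20) changed most, followed by H2-Eb1 (2.03 ± 0.24), H2-Aa, Cd74, H2-Ab1 and Ciita at 1.77 to 1.36. H2-DMa had 208 and 225 RPKM in Ly6C-low RMs, against 142 and 160 RPKM in Ly6C-high RMs (log2 0.52 ± 0.16; edgeR adjusted p = 0.0318), a call that ended whichever of the 4 libraries was left out. H2-DMb1 had 152 and 220 RPKM in Ly6C-low RMs, against 103 and 133 RPKM in Ly6C-high RMs (edgeR adjusted p = 0.0545), and DESeq2 and limma called it higher.

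Between these groups 4 of 6 costimulation and T cell inhibitory ligands rose and 0 fell, led by Pdcd1lg2 (log2 1.34 ± 0.35), and 3 of 6 antigen processing genes rose and 1 fell, led by Ctsd (log2 0.71 ± 0.14). Of 7 class II transcription factors 1 rose, Rfx5 (log2 0.74 ± 0.14); of 3 turnover genes 1 rose, Cd83 (1.74 ± 0.23); and of 9 interferon-gamma signalling genes 1 rose, Jak2 (0.84 ± 0.12), and 2 fell. Dendritic cell markers were higher in 7 of 10 cases, at a sum of 538 and 566 CPM in Ly6C-low RMs and 190 and 177 CPM in Ly6C-high RMs, led by Ccr7 (log2 4.27 ± 0.41), and hepatocyte markers were lower in 10 of 10. Sinusoidal endothelial markers were lower in 8 of 10 cases, at a median of 606 CPM in Ly6C-low RMs and 1023 CPM in Ly6C-high RMs, and all 6 Ly6C-high monocyte markers were lower, at 789 and 909 CPM against 3755 and 4215 CPM. Their part was again not tested.

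Over weeks of diet, class II genes rose in Tim4-positive Kupffer cells at weeks 20 and 30. H2-Aa had 1282, 903 and 1380 RPKM at week 0, 1306 and 2020 at week 1, 1306 and 440 at week 4, 1398, 1215 and 705 at week 10, 4024, 2265 and 3711 at week 20, and 4696, 3487, 4107 and 4267 RPKM at week 30. All 7 libraries of weeks 20 and 30 exceeded all 10 earlier ones in this gene. Ciita had 13, 7.86 and 13.7 RPKM at week 0, 7.14 and 12.9 at week 1, 14.8 and 5.91 at week 4, 17.5, 15.8 and 14.2 at week 10, 57.3, 33.6 and 49.4 at week 20, and 60.8, 29.7, 30.9 and 58.5 RPKM at week 30. Here, too, the late libraries lay above all earlier ones. How many of all genes share this pattern was not counted. Week 4 replicate 2 had the lowest H2-Aa, H2-Ab1, H2-Eb1 and Ciita levels of the time course.

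Against week 0, edgeR called 0 of 10 genes at weeks 1, 4 and 10, when it called 16% of all genes (9.42% higher, 6.56% lower), 8.54% (5.55% and 2.99%) and 19.1% (11.5% and 7.63%); at an unadjusted p below 0.05 there were 0, 1 and 1 of the 10, and 29.3%, 23.9% and 33.2% of all genes. DESeq2 and limma also gave 0 at weeks 1 and 10, but both called H2-Ob lower at week 4, where it had 2.2 and 0.854 RPKM, against 2.95, 3.17 and 7.8 RPKM at week 0 (log2 -1.60 ± 0.52; edgeR adjusted p = 0.0708); without week 0 replicate 3, its highest library, the edgeR adjusted p was 0.253. At week 20, 6 genes rose and 0 fell (34.7% of all genes called, 18.2% higher and 16.6% lower), with a median change of 0.98. At week 30, 7 rose and 0 fell (30.5% called, 15.5% higher and 15% lower), with a median of 1.35; the median over all genes was 0.00 in size at both weeks. These comparisons share the 3 week-0 libraries, so they are not independent of each other.

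H2-Eb1 averaged 1653 ± 597 RPKM at week 20 (SD, n = 3) and 2321 ± 295 RPKM at week 30 (n = 4), against 462 ± 94.7 RPKM at week 0 (n = 3), with log2 changes of 1.84 ± 0.38 and 2.33 ± 0.38 (SE; edgeR adjusted p = 0.00172 and 0.000239). H2-Ab1 changed by 1.66 ± 0.35 and 2.15 ± 0.34, H2-Aa by 1.49 ± 0.34 and 1.80 ± 0.33, Cd74 by 1.22 ± 0.25 and 1.40 ± 0.24, and Ciita by 2.02 ± 0.36 and 1.97 ± 0.35 at weeks 20 and 30. These 5 were called at both weeks whichever library was left out. H2-DMb1 had 180, 86.6 and 195 RPKM at week 20, against 78.5, 92.3 and 115 RPKM at week 0; the groups overlapped, and the call (log2 0.69 ± 0.25; edgeR adjusted p = 0.0406) ended in 4 of 6 fits that left out 1 library and with limma. At week 30 it had 280, 186, 224 and 247 RPKM (log2 1.30 ± 0.24; edgeR adjusted p = 0.000747).

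H2-DMa rose at week 30, with 225, 169, 196 and 205 RPKM, against 86.5, 109 and 133 RPKM at week 0 (log2 0.86 ± 0.19; edgeR adjusted p = 0.00248); at week 20 its edgeR adjusted p was 0.0507, and DESeq2 called it there. H2-Ob was not called, at 3.34, 3.3 and 3.31 RPKM at week 20 and 3.92, 2.47, 2.74 and 3.97 RPKM at week 30, against 2.95, 3.17 and 7.8 RPKM at week 0. H2-DMb2 (6.41, 7.46, 5.85 and 10.1 RPKM at week 30, against 3.77, 4.36 and 7.64 RPKM at week 0) and H2-Oa (3.58, 2.01, 2.73 and 4.78 RPKM against 1.26, 1.91 and 2.39 RPKM) were not called either.

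**Figure D3:**
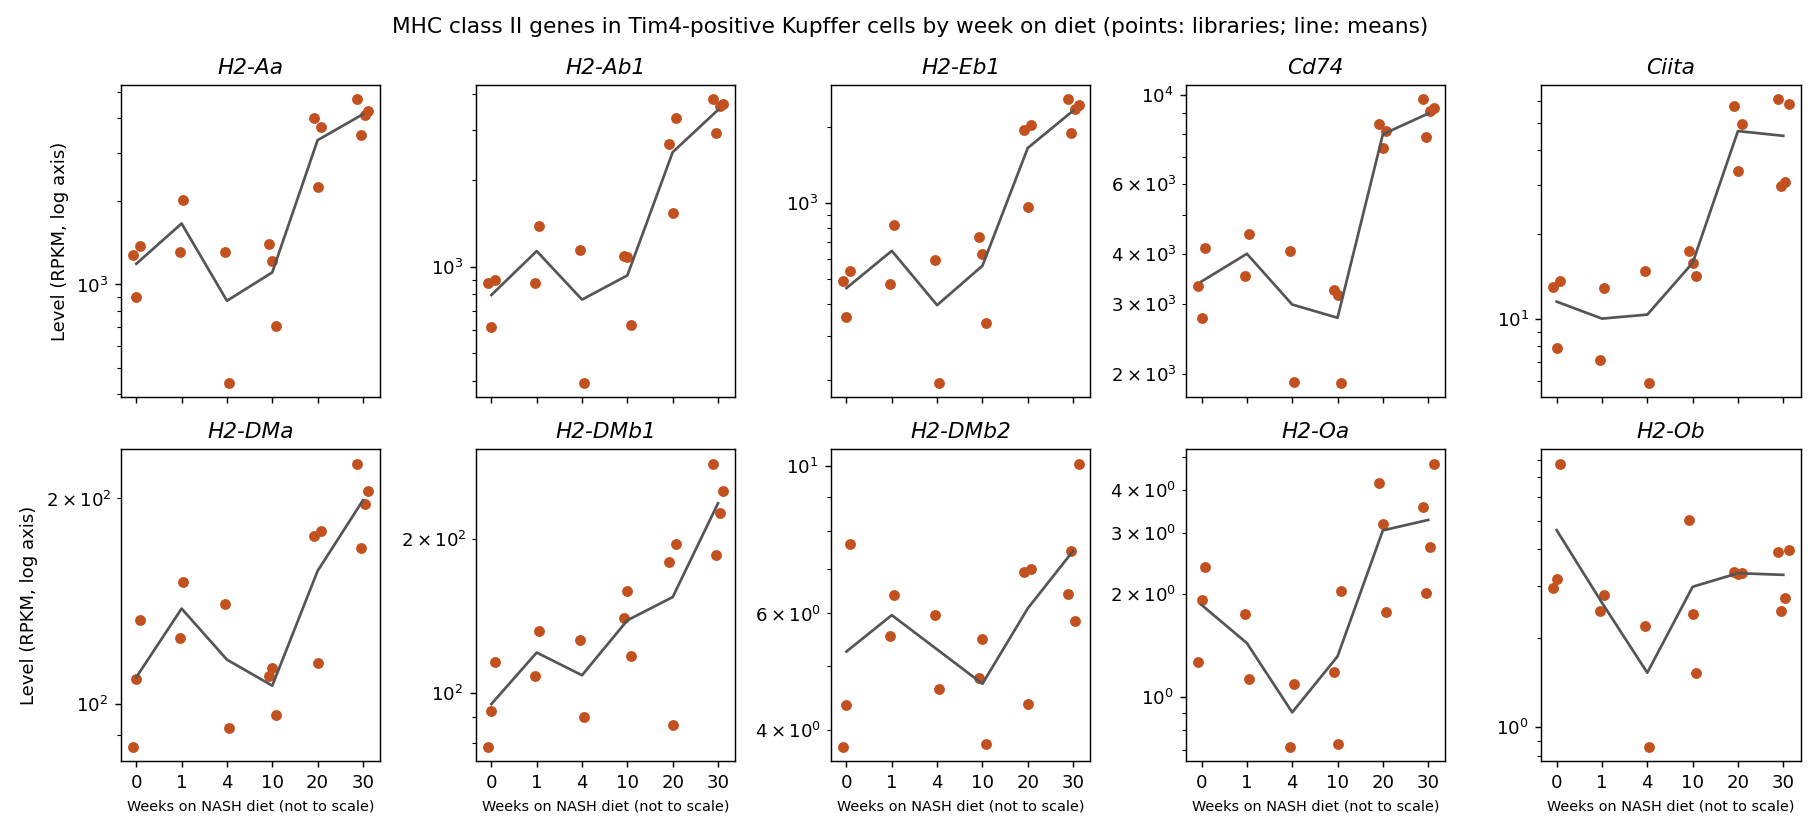
Level of each gene (RPKM, logarithmic axis) in Tim4-positive Kupffer cells after 0, 1, 4, 10, 20 and 30 weeks on NASH diet (horizontal axis, not to scale), with libraries as points and a line through the means. H2-Aa stands at 440 to 2020 RPKM up to week 10 and at 2265 to 4696 RPKM at weeks 20 and 30, while H2-Ob stands at 0.854 to 7.8 RPKM up to week 10 and at 2.47 to 3.97 RPKM at weeks 20 and 30.

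A fit of log2 weeks over the 14 libraries on NASH diet, which leaves week 0 out, called 6 of 10 genes higher and 0 lower, where 22.1% of all genes were called, 10.7% higher and 11.5% lower. The slope per doubling of weeks was 0.51 ± 0.09 for Ciita (SE; edgeR adjusted p = 0.00123), 0.42 ± 0.11 for H2-Eb1, 0.37 ± 0.10 for H2-Ab1, 0.32 ± 0.11 for H2-Aa, 0.28 ± 0.09 for Cd74 and 0.20 ± 0.06 for H2-DMb1. Leaving out 1 library gave 3 to 7 called genes, the fewest without week 30 replicate 1 or week 30 replicate 4. Ciita, H2-Ab1 and H2-Eb1 were called in all 14 such fits. The call of H2-Aa ended in 8 of them and with DESeq2. That of Cd74 ended in 3, and that of H2-DMb1 in 3 and with limma. A slope does not separate a gradual rise from a step.

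At week 30, 1 of 7 class II transcription factors fell, Creb1 (log2 -0.57 ± 0.11), and 0 rose; at week 20, 1 fell, again Creb1 (-0.48 ± 0.12), and 1 rose, Nfya. Of 6 antigen processing genes 3 rose at week 20 and 2 at week 30, led by Ctsd in each case (1.30 ± 0.16 and 1.43 ± 0.15), and 0 fell. Of 9 interferon-gamma signalling genes 1 rose and 2 fell at each of these weeks: Irf8 rose (0.82 ± 0.13 at week 20), and Ifngr1 and Irf1 fell (Irf1 by 1.01 on the log2 scale at week 30). Of 6 costimulation and T cell inhibitory ligands 2 rose and 1 fell at week 20, led by Cd274 (0.70 ± 0.20), and 0 rose and 2 fell at week 30, led by Cd80 (-0.70 ± 0.18). None of the 3 turnover genes was called at weeks 20 and 30, though 2 rose at week 1, led by Cd83 (1.42 ± 0.46), and 1 at week 10, March1 (0.73 ± 0.15). Weeks 1, 4 and 10 otherwise had 3 antigen processing genes higher at week 1, led by Ctss (0.66 ± 0.14), with Cd86 and Irf8 also higher; Creb1 and 3 interferon-gamma signalling genes lower at week 4, led by Socs1 (-2.02 ± 0.45); and Icosl (-1.20 ± 0.18) and Irf1 (-1.04 ± 0.20) lower at week 10.

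Kupffer cell markers fell in the same late cells, 5 of 6 at week 20 and 4 of 6 at week 30, with sums of 16311 to 19658 CPM at week 20 and 14581 to 19926 CPM at week 30, against 19326 to 25840 CPM at week 0. B cell markers summed to 209 to 228 CPM at week 20 and 191 to 217 CPM at week 30, against 130 to 183 CPM at week 0, but only Cd22 was called higher, Fcrla was lower at week 20, and the median log2 change of the 10 was -0.54 at week 20 and -0.66 at week 30. Sinusoidal endothelial markers were lower in 6 of 10 cases at week 20 and 9 of 10 at week 30, with sums of 867 to 1594 CPM and 603 to 889 CPM, against 1081 to 2268 CPM at week 0. Dendritic cell markers summed to 113 to 132 CPM and 108 to 122 CPM at weeks 20 and 30, against 174 to 198 CPM at week 0, with 3 of 10 lower and 0 higher at each of these weeks. Hepatocyte markers were highest at week 1, at 3355 and 5607 CPM, against 48 to 152 CPM at week 0, and 6 of 10 were higher at each of weeks 20 and 30. Ly6C-high monocyte markers summed to 47.2 to 89 CPM at week 20 and 66 to 94.5 CPM at week 30, against 24.8 to 66.5 CPM at week 0. Of these 6, 0 were called at week 20, and Ccr2 was higher at week 30. T and NK cell markers summed to 41.9 to 151 CPM and 37.2 to 121 CPM at weeks 20 and 30, against 49.7 to 88.9 CPM at week 0. Only Cd3e, at week 20, was called higher. The part of these markers in the class II time course was not tested. Week 30 replicates 2, 3 and 4 also held 24, 9 and 11 reads of H2-Ea-ps, the I-E alpha chain locus that C57BL/6 mice do not express, and their source was not tested. Week 30 replicate 1 and all 3 week 20 libraries, with 0 such reads, had 4696 RPKM and 2265 to 4024 RPKM of H2-Aa.

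The ratio of the class II chain to its peptide editor was also followed. H2-Aa was 8.29-fold to 14.8-fold of H2-DMa at week 0, 19.7-fold to 22.9-fold at week 20 and 20.6-fold to 21-fold at week 30, so the late libraries lay above all of week 0. In the population set it was 31.1-fold and 32.6-fold in Ly6C-low RMs. H2-DMa over H2-Oa was 2.88 to 3.03 in Ly6C-low RMs and 18.5 to 198 in all other libraries of that set.

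The deposited table lists 2 Cd74 transcripts that differ by 1 cassette exon, 191 bases in the file's lengths, and counts a read of a shared exon in both, so the reads of that exon could be taken as the difference between the 2 counts. The longer transcript corresponds to the p41 form of the invariant chain, whose added domain inhibits cathepsins. Read density over the exon, as a percent of the density over the rest, was 37.5 and 27 in Ly6C-low RMs, 39.5 and 35.3 in KN-RMs, 44.7 and 54.6 in NASH Kupffer cells, 38.9 and 48.3 in healthy Kupffer cells, 24.1 and 24.3 in Ly6C-high RMs and 19.9 and 18.3 in blood monocytes. In the time course it was 25.5, 27.5 and 29.3 at week 0, 21, 18.4 and 22.3 at week 10, 39.3, 61.7 and 45 at week 20, and 35.3, 41.6, 34.2 and 37.5 at week 30, with no overlap between either late week and week 0. The mean at week 30 was 9.72 percentage points above week 0, with a two-sided exact permutation p of 0.0571, the smallest that 4 against 3 libraries allow (adjusted p = 0.167 over 5 such tests). Week 20 was 21.2 points above and week 10 6.87 points below week 0, each at the smallest exact p that 3 against 3 libraries allow, 0.1 (adjusted p = 0.167). The tests of the LXR labels (exact permutation p = 0.7) and of the DTR labels (permutation p = 0.141) did not reach the threshold either. Healthy Kupffer cells of the population set and week-0 Kupffer cells, both on control diet, did not overlap either, so this measure is compared only within a set.

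**Figure D4:**
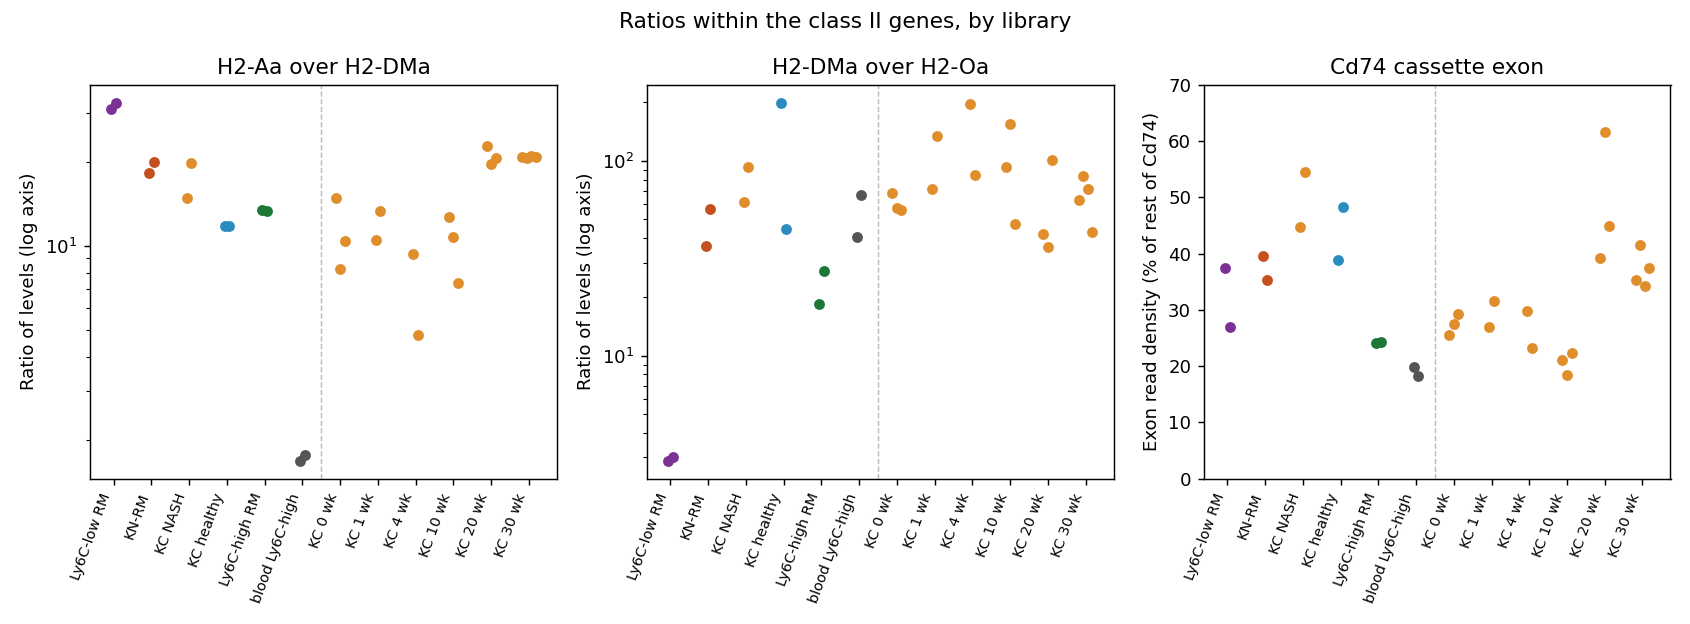
H2-Aa over H2-DMa and H2-DMa over H2-Oa (ratios of RPKM, logarithmic axes) and read density over the Cd74 cassette exon (percent of the rest of the transcript) in each library of the sorted populations (left of the dashed line) and of the Kupffer cell time course (right of it). Ly6C-low RMs stand apart by H2-DMa over H2-Oa, at 2.88 and 3.03, and blood monocytes by H2-Aa over H2-DMa, at 1.69 and 1.77.

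Ciita has alternative first exons, of which the most upstream, at position 10480072, is known for use in dendritic cells and macrophages and the 2 downstream ones for use in B cells and after interferon-gamma. A read of a shared exon is counted in every Ciita transcript, and the counts of the transcript that begins upstream exceeded those of the one with the last start by 34.7 reads per 1000 Ciita reads in Ly6C-low RMs, 59.8 in KN-RMs, 59.7 in NASH Kupffer cells, 17.3 in healthy Kupffer cells, 42.8 in Ly6C-high RMs and 36.1 in blood monocytes, and by 17.8 at week 0, 27.1 at week 1, 29.8 at week 4, 21.7 at week 10, 48.1 at week 20 and 49 at week 30. These are sums over the libraries of a group, with no test. Few reads lie behind the low values: the healthy Kupffer cell libraries had 7 and 19 excess reads (9.86 and 23.8 per 1000), and those of weeks 0 to 10 had 8 to 48 (5.28 to 42.7 per 1000), against 117 and 210 reads in NASH Kupffer cells (54.3 and 63.2 per 1000). Weeks 20 and 30 had 155 to 320 reads, at 35.2 to 56.7 per 1000, which overlapped with weeks 1 and 10. The middle start differed from the last by -12 to 20 reads per group, out of 1210 to 28746 Ciita reads in the sorted C57BL/6J cells. A first exon holds few reads, and a difference of counts cannot give the level of either downstream exon by itself.

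Among 11476 other genes ranked by their likeness to the mean of H2-Aa, H2-Ab1, H2-Eb1 and Cd74 over the 16 group means of log2(CPM + 1), those among the most alike included Mir5107 (Pearson r = 0.990), Pdgfb (0.963), Slc37a2 (0.951) and Plau (0.940). Mir5107 is annotated inside the span of Cd74, so the same reads may be counted for both. Among the members themselves, r was 0.998, 0.997, 0.995 and 0.990 for the 4 genes that make up the mean, 0.914 for H2-DMb1, 0.844 for H2-DMa, 0.832 for Ciita, 0.790 for H2-DMb2, 0.744 for H2-Ob and 0.568 for H2-Oa. These 16 points include whole tissue and differ in depth, so the values only describe likeness.

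In KN-RMs with floxed LXR alleles, the counts of the targeted genes were not lower under the Cre-positive label: Nr1h3, which encodes LXR alpha, had 96.2, 232 and 154 RPKM in libraries labelled Cre positive and 127, 145 and 158 RPKM in libraries labelled Cre negative, and Nr1h2, which encodes LXR beta, had 30.4, 41 and 32.1 RPKM against 25.4, 16.6 and 18.2 RPKM. Reads of exons outside a floxed region would not show a deletion, and the floxed exons are not given in the sources used here. By edgeR 0 of the 9 class II genes tested were called, with 0 at an unadjusted p below 0.05 (8.25% of all genes) and 0 with DESeq2 and limma, in a comparison that called 0.209% of all genes (0.174% higher, 0.0348% lower); H2-Oa, with 0 to 1.83 RPKM, did not pass the filter on low counts. H2-Aa had 1218, 935 and 1081 RPKM in libraries labelled Cre positive, against 848, 682 and 1256 RPKM in libraries labelled Cre negative (log2 0.22 ± 0.25), and Ciita had 68.9, 34 and 61.8 RPKM against 56.6, 37.3 and 74.9 RPKM (-0.04 ± 0.31). The fitted log2 difference was 0.15 ± 0.26 for Cd74, 0.19 ± 0.27 for H2-Ab1, 0.35 ± 0.25 for H2-Eb1, -0.06 ± 0.22 for H2-DMa, -0.00 ± 0.25 for H2-DMb1, -0.34 ± 0.59 for H2-DMb2 and 0.35 ± 0.53 for H2-Ob. Cre-positive replicate 1, the shallowest library, had 166 RPKM of Clec4f, against 395 to 1174 RPKM in the other 5 libraries. Of each of the 5 pathway lists, edgeR called 0 genes. Of the 6 Ly6C-high monocyte markers 3 were tested, and 1, Ccr2, was higher under the Cre-positive label. These 6 summed to 175 to 248 CPM in Cre-positive and 34.3 to 68 CPM in Cre-negative libraries, where Ly6c2 and Chil3 were at 0. In each other marker list 0 genes were called, but not all markers passed the filter on low counts. Only 4 of 10 B cell, 4 of 10 dendritic cell and 2 of 10 T and NK cell markers were tested. The part of these markers was not tested.

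In whole liver Clec4f ranged from 1.41 to 58.7 RPKM in livers labelled DTR positive and from 0.571 to 49.2 RPKM in livers labelled DTR negative, so the labels overlapped in it. EdgeR called 0 of the 8 class II genes tested, with 0 at an unadjusted p below 0.05 and 0 with DESeq2 and limma, in a comparison that called 0% of all genes by edgeR, DESeq2 and limma and had 477 of 12682 at an unadjusted p below 0.05. H2-DMb2 and H2-Oa did not pass the filter on low counts. H2-Aa ran from 28.5 through a median of 145 to 179 RPKM in 12 DTR-positive livers and from 31 through 126 to 178 RPKM in 10 DTR-negative livers (log2 0.08 ± 0.28), and Cd74 from 68.4 through 301 to 393 RPKM and from 68.9 through 254 to 371 RPKM (0.12 ± 0.26). Ciita was at 0.337 to 2.24 RPKM in DTR-positive and 0.117 to 1.77 RPKM in DTR-negative livers (0.25 ± 0.29).

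The spread lay within the labels. In 3 livers H2-Aa was at 28.5, 32.2 (DTR-positive replicates 7 and 2) and 31 RPKM (DTR-negative replicate 2), and the next lowest had 73.7 RPKM. The same 3 had the lowest Cd74, at 87.4, 68.4 and 68.9 RPKM, and the lowest Ciita, from 0.117 to 0.412 RPKM. Summed macrophage markers in them were 315, 289 and 308 CPM, against medians of 1096 CPM in DTR-positive and 1023 CPM in DTR-negative livers, and hepatocyte markers 192711, 213588 and 188590 CPM, against medians of 93387 and 110967 CPM. DTR-positive replicate 1 had as much of these, 194817 CPM, with 524 CPM of macrophage markers and 73.8 RPKM of H2-Aa. The Clec4f level of the 3 livers was 37.9, 4.86 and 49.2 RPKM, so it was not low in all 3. The part of these markers was not tested. Of each of the 5 pathway lists, edgeR called 0 genes here too.

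**Figure D5:**
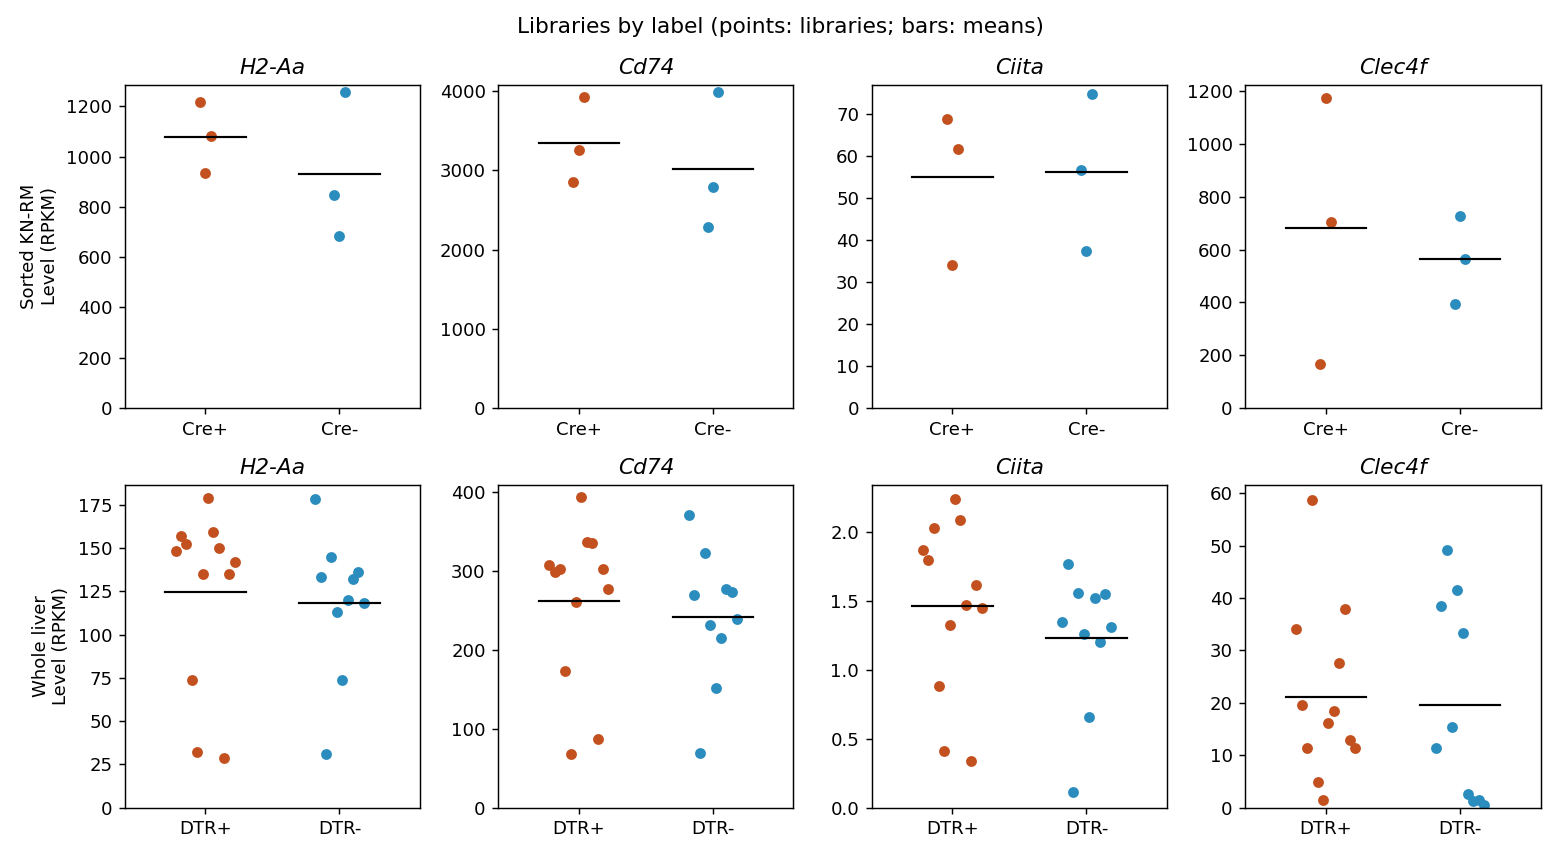
Levels (RPKM, linear axes from 0) of H2-Aa, Cd74, Ciita and Clec4f in sorted KN-RMs labelled Cre positive or Cre negative (top) and in whole livers labelled DTR positive or DTR negative (bottom), with libraries as points and bars at the means. The labels overlap in each panel, and 3 whole livers lie at 28.5 to 32.2 RPKM of H2-Aa.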

How the data were processed

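Polyadenylated RNA of 57 samples was sequenced. The submitters' processing notes name the tools DESeq2, HOMER and STAR and the builds GRCm38 and mm10, without versions. The authors deposited raw counts and TPM values for 40458 RefSeq transcripts; per the file headers, HOMER counted reads in exons for each, so a read shared by isoforms enters every isoform. Whether strand was used is not given in the sources used here.

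Of several transcripts of a symbol, the one with most reads over all libraries stood for the gene. Deposited counts were fitted set by set in edgeR 4.0.16 (R 4.3.3; filterByExpr at a minimum count of 10, TMM, quasi-likelihood test) on 14407 genes for the populations, 14552 for the time course, 14470 for the slope over weeks, 11480 for LXR and 12682 for whole liver. Deposited TPM entered only the alternative in limma 3.58.1 on log2(TPM + 1); DESeq2 1.42.0 was another. RPKM was computed here from counts and the file's exon lengths.

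Replicates differed beyond counting noise (chi-square per degree of freedom 5.03 to 79.9 over 140 pairs). The members, lists and tests were chosen with earlier results of these data known. All 10 members are named, and in each pathway list the called gene with the largest change; other genes of the lists were named after their values were seen. Some genes that this rule would name are not reported here.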

Additional observations from a re-analysis of the deposited data

How the results depend on the processing

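The 51 called gene results kept their direction in all 603 values under the alternatives run (RLE size factors, no low-count filter, longest transcript, replicate block, DESeq2, limma on log2(TPM + 1), each library left out); 42 of them no longer passed the threshold. For the count of members called, week 4 against week 0 gave 0 in the main test but 1 (H2-Ob, lower) without the filter, with DESeq2 and with limma, and the slope over weeks gave 6 but 1 with the replicate block. Counts over all genes moved more: KN-RMs against NASH Kupffer cells had 77 called genes, 257 without the filter, 152 with the replicate block and 269 with DESeq2; the slope over weeks had 3203, and 1741 with the block; the LXR comparison had 24, and 273 without the filter, 112 with the block, 232 with DESeq2 and 2 with limma. The cause was not tested.

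With 1 library left out, which leaves an arm of 1 library to vary like the other groups, members called and genes called ranged from 6 to 9 and 846 to 2031 (2988 with all) for NASH against healthy Kupffer cells, 0 and 10 to 33 for KN-RMs against NASH Kupffer cells, 4 and 2851 to 3607 (4804) for Ly6C-low RMs against KN-RMs, 10 and 5450 to 5793 (7000) for Ly6C-high RMs against blood, 8 to 9 and 1619 to 3051 (3702) for Ly6C-low against Ly6C-high RMs, 0 and 1068 to 1931 (2325) at week 1, 0 and 538 to 1025 (1243) at week 4, 0 and 1597 to 2808 (2786) at week 10, 5 to 7 and 3842 to 4979 (5056) at week 20, 7 and 3417 to 3764 (4437) at week 30, 3 to 7 and 1967 to 3657 for the slope, and 0 and 0 to 81 for LXR.

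The labels do not say that replicate numbers pair libraries, and no comparison with 3 or more pairs had every correlation of deviations over 0.1 (0.08 to 0.28 at week 10, -0.03 to 0.25 for LXR, -0.42 to 0.80 in whole liver). In the population set, whose 2 libraries a group cannot decide this, r was 0.57 for KN-RMs against NASH Kupffer cells, 0.52 for Ly6C-low RMs against KN-RMs, 0.43 for Ly6C-low against Ly6C-high RMs, 0.13 for NASH against healthy Kupffer cells and -0.11 for Ly6C-high RMs against blood; hepatocyte markers there were lower in replicate 1 than in replicate 2 of all 4 NASH liver populations. With the replicate block, H2-DMb1 was also no longer called at week 20 and was called for Ly6C-low against Ly6C-high RMs, and no member call of the other comparisons changed apart from the slope.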

Other observations

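H2-Eb2, a class II beta chain gene beside H2-Eb1 that was not among the 10 genes, had 13.6 and 14.1 RPKM in Ly6C-low RMs, against 0.393 and 0.317 RPKM in KN-RMs (log2 5.26 ± 0.32; edgeR adjusted p = 1.07e-06) and 1.74 and 2.33 RPKM in Ly6C-high RMs (log2 2.76 ± 0.27; edgeR adjusted p = 5.3e-05). It stayed at or below 0.583 RPKM in every Kupffer cell library.

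H2-Ea-ps, the annotated copy of the I-E alpha chain gene, which C57BL/6 mice do not express, had 24, 9 and 11 reads in week 30 replicates 2, 3 and 4 and 4 reads in KN-RM replicate 1 labelled Cre positive. It had 0 or 1 read in each of the other 53 libraries. The labels give C57BL/6J for the week 30 libraries, and the source of these reads was not tested.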
